A study of Homo sapiens with 6 samples.

Results

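The transcripts of 10 genes were followed in H526 cells that had become resistant to onvansertib. They encode the polo-like kinases *PLK1*, *PLK2*, *PLK3* and *PLK4* and the proteins that activate or anchor PLK1, the target of the drug: *BORA*, *AURKA*, *TPX2*, *CEP192*, *CENPU* and *AURKB*. The rule that lists the members names them by role and uses no measured value, although it was written with earlier results of these data known. They are 10 of the 62710 genes in the expression table. Of the 10 members, 9 passed the filter on low values (a mean normalized value of 10 or more), as did 16347 genes in all. The exception was *PLK2*.

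H526 is an established human small cell lung cancer (SCLC) line. Total RNA of 3 parental libraries (numbered 1, 2 and 3) was compared with that of 3 resistant libraries (numbered 7, 8 and 9). The resistant cells came from the same line, exposed first to 10 nM onvansertib and then to rising doses until, after a year, they grew in 75 nM. Parental cells received no onvansertib that the labels mention, and both groups were kept in the same medium with serum. RNA was harvested on separate occasions, but nothing says whether these were separate derivations or whether the drug was present at harvest. All 6 libraries therefore describe a single line and a single resistant culture as far as is stated, and every p-value below measures the spread between these samples, which may be technical.

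Sequencing depth, estimated from the smallest steps between values, was 25641274 to 28476925 reads in the parental and 22302356 to 23275730 in the resistant libraries. Values are DESeq2-normalized read numbers, called normalized values here. A floor of 3 reads corresponded to a mean normalized value of 2.84 in parental and 3.17 in resistant libraries, and it covers counting error only. The tuft-cell factor *POU2F3*, which defines a non-neuroendocrine SCLC subtype, lay between 24511 and 27873 in all 6 libraries, while the neuroendocrine factor *NEUROD1* reached at most 5.49. Other SCLC markers differed between the groups by limma. The neuroendocrine genes *INSM1* (6091 ± 571 against 1253 ± 114, adjusted p 1.64e-07), *SYP* (1334 ± 126 against 301 ± 54.7, adjusted p 2.96e-06), *CHGA* (254 ± 48.3 against 12.8 ± 3.28, adjusted p 2.81e-06) and *NCAM1* (4384 ± 555 against 3139 ± 264, adjusted p 0.00341) were lower in resistant cells. *YAP1* (48.9 ± 6.86 against 111 ± 16.1, adjusted p 0.00236) and the tuft-cell channel gene *TRPM5* (189 ± 39.2 against 643 ± 116, adjusted p 5.34e-05) were higher. Of the 10 SCLC markers tested, 4 were higher and 5 lower. *ASCL2* was also among the lower ones (8826 ± 308 against 6376 ± 195, adjusted p 0.000175 by limma). The part of these marker shifts in the results below was not tested. Of 9 stroma and blood markers, 6 were at or under 3 reads in every library, among them *PTPRC*, *PECAM1* and *HBB*. Those 9 summed to between 139 and 191 in parental and between 371 and 597 in resistant libraries, with *COL1A1* at 59.7 ± 21.9 against 269 ± 34.7 (SD, n = 3 per group), and their part in the results below was not tested.

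PLK1 is a serine/threonine kinase that drives entry into mitosis, centrosome maturation, chromosome alignment and cytokinesis. It is switched on in G2 when Aurora A, the product of *AURKA*, phosphorylates its activation loop with the help of the cofactor Bora. Aurora A is itself activated by TPX2 on spindle microtubules and by the scaffold CEP192 at centrosomes, where CEP192 also recruits PLK1, while CENP-U anchors PLK1 at kinetochores through its polo-box domain. Aurora B, the product of *AURKB*, is the catalytic subunit of the chromosomal passenger complex, which corrects faulty attachments at the centromere. PLK4 governs centriole duplication, and PLK2 and PLK3 are better known as stress-responsive members of the family.

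Many genes of this kind are transcribed in G2 and M through the cell cycle genes homology region (CHR, TTTGAA or TTCGAA), which is bound by the DREAM and MuvB complexes, and through CCAAT boxes, which are bound by NF-Y. The RefSeq promoter table (GRCh38.p14, 250 bases before to 50 bases after each RefSeq start) held 8 of the 10 members, not *AURKA* and *TPX2*. For each member only the first start listed was searched, on both strands and for each motif. *PLK4* had 3 starts and *AURKB* had 2, and their other starts were not searched. Stretches around 8 of the matches are shown because they carry the letters shared by members that did and did not change. They run 5′ to 3′ in the direction of the gene, with the motif in capitals, and TTCAAA and ATTGG are TTTGAA and CCAAT read on the other strand.
PLK1 CHR, chr16:23678848-23678877, plus strand: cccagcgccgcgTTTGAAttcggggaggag
PLK1 CCAAT box, chr16:23678804-23678832, plus strand: aaatccccgcggCCAATcagtggcgcgca
PLK4 CHR, chr4:127880919-127880942, plus strand: cggcgggagattTTCAAAatggga
BORA first CHR, chr13:72727734-72727763, plus strand: aggctgcgttgaTTTGAAtttggagccacg
BORA second CHR, chr13:72727787-72727816, plus strand: gaggagttgccaTTCGAAtttcctacgcgg
CEP192 CHR, chr18:12991156-12991185, plus strand: cggcttcctcgcTTCAAAtccaggaacgcg
CENPU CCAAT box, chr4:184734114-184734142, minus strand: tgctcggcccggATTGGctgttcggagcg
AURKB CCAAT box, chr17:8210362-8210390, minus strand: accagcgcccagATTGGggctagtgtgct

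A CHR match was found in 4 of the 8 promoters. It lay 29 bases before the start in *PLK1*, 177 and 124 bases before it in *BORA*, 194 bases before it in *CEP192* and 38 bases after it in *PLK4*. Of all 35116 promoters in the table, counted by start and not by gene, 16.35% held either form of the CHR. A CCAAT box was found in 5 of the 8, namely *PLK1*, *BORA*, *CEP192*, *CENPU* and *AURKB*, and in 34.61% of all promoters. The windows of *PLK1*, *BORA*, *PLK4* and *CENPU* overlap annotated exons of those genes, and the CHR window of *CEP192* overlaps an exon of its divergent transcript *CEP192-DT*. No match to any of these letters was found in the windows searched for *PLK2* and *PLK3*. A match is a description of letters and not of a bound site.

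Of the 9 members tested, 3 passed the threshold of an adjusted p of 0.05 by limma, *AURKB*, *PLK4* and *CENPU*, and all were lower in resistant cells. Over all genes tested, 37.7% passed (17.8% higher and 19.8% lower), so 3 of 9 is close to the background share. The median log2 fold change of the 9 members was 0.00, as it was for all genes tested (-0.00), and their median absolute log2 fold change was 0.22 against 0.30 for all genes. The parental and resistant values did not overlap in 5 members, with *BORA* and *CEP192* higher and *AURKB*, *PLK4* and *CENPU* lower, while 49.9% of all genes tested did not overlap (24% higher and 25.9% lower). In bulk RNA, fewer cells in a given phase of the cycle and less transcript per cell cannot be told apart.

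**Figure D1:**
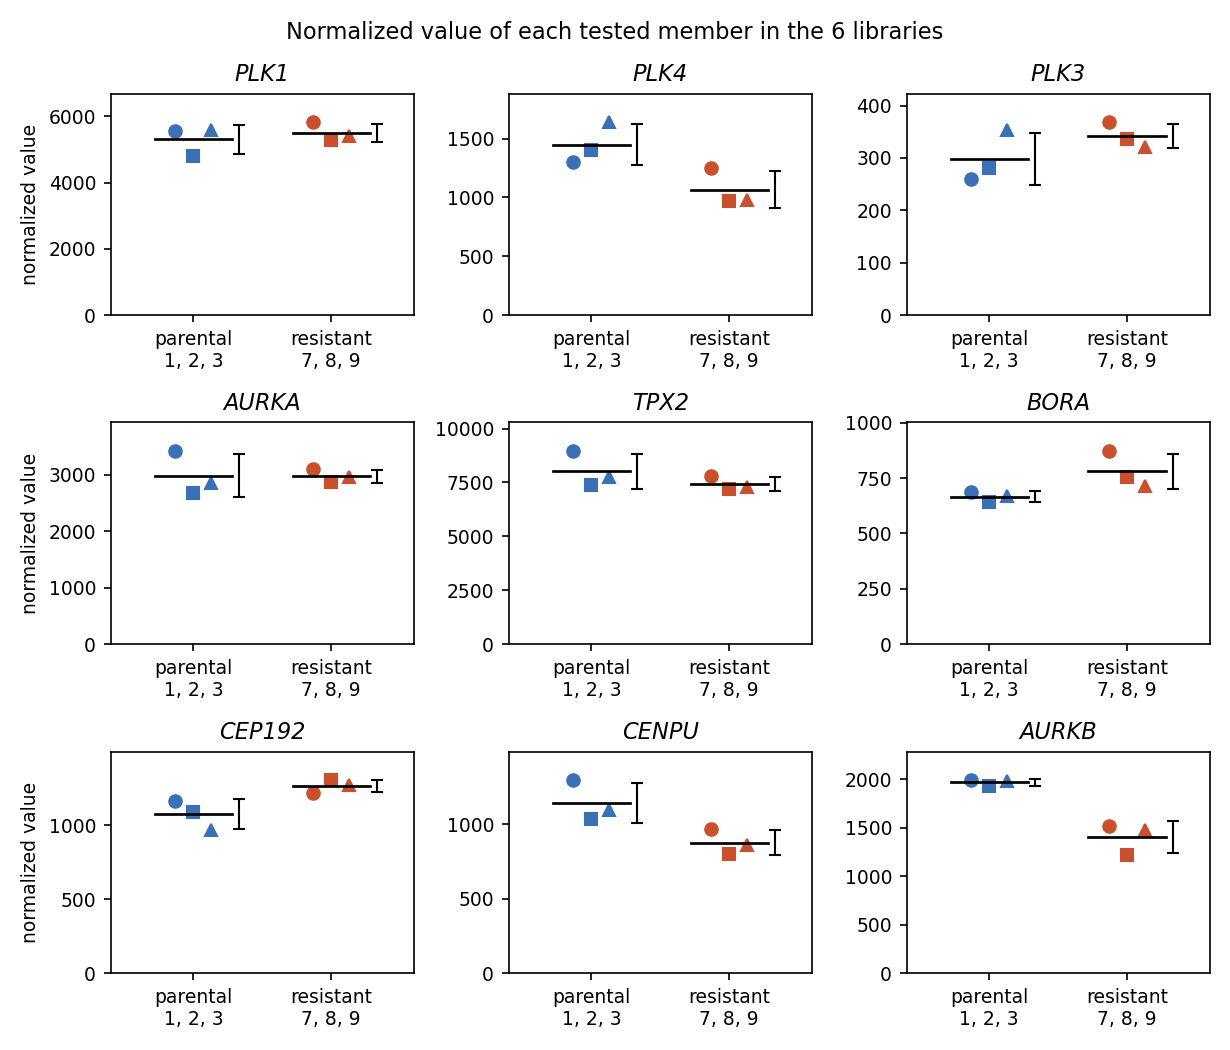
Normalized value (vertical axis, from 0) of the 9 tested members in each parental library (blue: circle 1, square 2, triangle 3) and each resistant library (red: circle 7, square 8, triangle 9), with the group mean as a line and the SD as a bar. The *PLK1* values of all 6 libraries lie between 4798 and 5819 and the groups overlap between 5288 and 5578, whereas every resistant value of *AURKB* lies at or under 1514 and every parental value at or above 1926.

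*PLK1* (ENSG00000166851, chr16:23677656-23690367, plus strand, 10 exons in the canonical transcript) encodes the kinase that onvansertib inhibits. Its normalized values were 5556, 4798 and 5578 in parental libraries 1, 2 and 3 and 5819, 5288 and 5420 in resistant libraries 7, 8 and 9. The groups overlapped, and the lowest value belonged to a parental library. The means were 5311 ± 444 and 5509 ± 276 (SD, n = 3 per group), a log2 fold change of 0.06 (SE 0.07) with an adjusted p of 0.598 by limma. The 95% confidence interval of the fold ran from 0.926 to 1.17, which bounds any difference of these means but does not show that they are equal. Without parental library 2 the log2 fold change was -0.02, so its sign rested on that library. Only transcript level was measured here, and changes in the coding sequence of *PLK1* were not analysed.

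Per kilobase of the canonical transcript, *PLK1* stood at 2459 ± 206 in parental and 2550 ± 128 in resistant cells, above 95.4% of all genes tested in the parental libraries. On the same scale the share of *PLK1* in the sum of the 4 polo-like kinases was 85.1%, 82.1% and 81.7% in parental and 84.8%, 86.1% and 86.5% in resistant libraries. *PLK1* thus made up most of the family's transcripts in every library. The difference of the mean shares was 2.82 percentage points (83.0 ± 1.86 against 85.8 ± 0.858, SD, n = 3 per group), with p = 0.20 in an exact two-sided permutation test. With 3 libraries a side, that test cannot go below 0.10. The canonical transcript of *PLK1* has 2160 bases and its longest 4135. Its rank among all genes was not recomputed with the longest transcripts.

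*PLK4* (ENSG00000142731, chr4:127880893-127899224, plus strand), the kinase that starts centriole assembly, was lower in resistant cells. Its normalized values were 1302, 1404 and 1638 in parental and 1248, 969 and 981 in resistant libraries. The groups did not overlap, although resistant library 7 came within a small distance of parental library 1. The means of 1448 ± 172 and 1066 ± 157 gave a log2 fold change of -0.44 (SE 0.12), a fold of 0.735 and an adjusted p of 0.0142 by limma. Without parental library 3 the adjusted p was 0.0631 (log2 fold change -0.35), and without resistant library 8 it was 0.0570 (-0.38), so the call needs both libraries. Per kilobase, *PLK4* took 11.2%, 13.5% and 13.5% of the family sum in parental and 10.2%, 8.88% and 8.81% in resistant libraries. The mean share differed by -3.44 points (p = 0.10, exact two-sided permutation test, Benjamini-Hochberg adjusted 0.267 over the 4 kinases) and by -5.34 points when the longest transcript set the length.

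*PLK3* (ENSG00000173846, chr1:44800377-44805990, plus strand), a kinase linked to stress responses, had normalized values of 260, 280 and 354 in parental and 368, 337 and 321 in resistant libraries. Parental library 3 lay among the resistant values. The means were 298 ± 49.4 and 342 ± 23.7 (SD, n = 3 per group), the log2 fold change was 0.21 (SE 0.14, 95% confidence interval -0.11 to 0.52) and the adjusted p was 0.278 by limma. Its share of the family sum per kilobase was 4.29% ± 0.566 in parental and 4.91% ± 0.168 in resistant cells, with p = 0.20 in the same exact permutation test. The interval of *PLK3* was the widest of the 9 members.

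*PLK2* (ENSG00000145632, chr5:58453982-58460139, minus strand) had a normalized value of 0.252 in parental library 1 and 0 in the other 5 libraries, under the floor of 3 reads in all. *PLK5* (ENSG00000185988, chr19:1508023-1536046), the remaining family member, which lacks kinase activity in humans, was listed at 0 in all 6. Neither could be tested, and no transcript of either was detectable at this depth in cells from before or after selection. The family in H526 was therefore measured as *PLK1*, *PLK4* and *PLK3*, in that order per kilobase in every library.

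**Figure D2:**
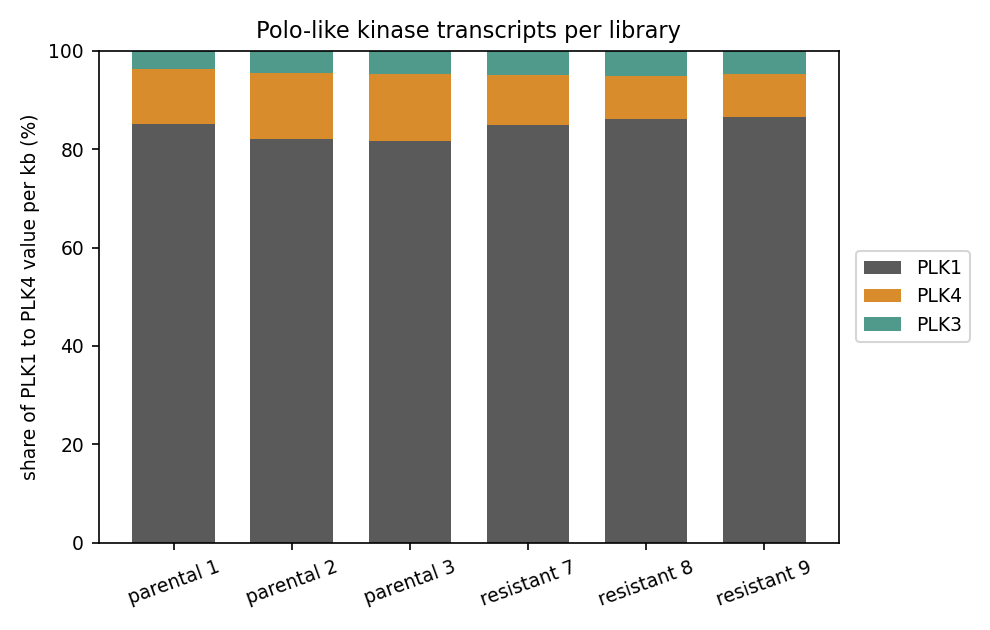
Share of *PLK1*, *PLK4* and *PLK3* (vertical axis, percent) in the summed normalized value per kilobase of *PLK1* to *PLK4*, as 1 stacked bar per library. *PLK1* takes between 81.7% and 86.5% of each bar, and the *PLK4* segment is larger in each parental library (at least 11.2%) than in each resistant library (at most 10.2%), while *PLK2* is too low to be drawn.

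*AURKA* (ENSG00000087586, chr20:56369389-56392337, minus strand), whose product phosphorylates the activation loop of PLK1, had normalized values of 3414, 2684 and 2847 in parental and 3100, 2867 and 2960 in resistant libraries. All resistant values lay inside the parental range. The means were 2982 ± 384 and 2975 ± 117 (SD, n = 3 per group), and the log2 fold change was 0.00 (SE 0.09, 95% confidence interval -0.20 to 0.20), with an adjusted p of 0.978 by limma. Its sign turned negative without parental library 2 (-0.07), parental library 3 (-0.03) or resistant library 7 (-0.03).

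*BORA* (ENSG00000136122, chr13:72727749-72756198, plus strand), whose product presents PLK1 to Aurora A, had normalized values of 688, 641 and 669 in parental and 870, 755 and 715 in resistant libraries. Each resistant value was above each parental value. The means were 666 ± 23.5 and 780 ± 80.7, and the log2 fold change of 0.22 (SE 0.10, 95% confidence interval 0.00 to 0.44) did not pass the threshold, with an adjusted p of 0.101 by limma. Under 2 other scalings of the libraries it did, at 0.28 with the upper quartile (adjusted p 0.0424) and 0.29 with equal sums (adjusted p 0.0351). *BORA* shares 1180 of its 3189 exonic bases with *DIS3*, an RNA-degrading exosome subunit on the opposite strand, at 3004 ± 208 in parental and 3245 ± 115 in resistant cells. Whether reads were assigned by strand is not given in the sources used here, so reads in the shared bases may belong to either gene.

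*TPX2* (ENSG00000088325, chr20:31739271-31801805, plus strand), the spindle activator of Aurora A, had normalized values of 8942, 7404 and 7735 in parental and 7793, 7213 and 7306 in resistant libraries. The groups overlapped, with parental library 1 highest. The means were 8027 ± 809 and 7437 ± 312, the log2 fold change was -0.11 (SE 0.08, 95% confidence interval -0.28 to 0.06) and the adjusted p was 0.308 by limma. Per kilobase of the canonical transcripts, *TPX2* was first and *PLK1* second among the members in parental library 1, and *PLK1* was first and *TPX2* second in the other 5 libraries. This order depends on the length used. The longest transcript of *PLK1* has 4135 bases against 2160 for the canonical one, and that of *TPX2* 3605 against 3473. The order was not recomputed with them.

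*CEP192* (ENSG00000101639, chr18:12991362-13125052, plus strand), the centrosomal scaffold for both Aurora A and PLK1, had normalized values of 1167, 1091 and 970 in parental and 1221, 1304 and 1272 in resistant libraries. Each resistant value was above each parental value, by the least between resistant library 7 and parental library 1. The means were 1076 ± 99.3 and 1266 ± 41.6, and the log2 fold change of 0.24 (SE 0.09, 95% confidence interval 0.04 to 0.43) missed the threshold at an adjusted p of 0.0546 by limma. Without parental library 1 it passed, at 0.30 with an adjusted p of 0.0286, and it passed in 5 of 15 alternative analyses in all.

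*CENPU* (ENSG00000151725, chr4:184694085-184734130, minus strand) encodes the kinetochore protein that docks PLK1. Its normalized values were 1296, 1037 and 1094 in parental and 968, 803 and 864 in resistant libraries. The groups did not overlap. The means of 1142 ± 136 and 878 ± 83.1 gave a log2 fold change of -0.38 (SE 0.11), a change of -23.0%, with an adjusted p of 0.0192 by limma. The call was lost without parental library 1 (log2 fold change -0.28, adjusted p 0.0625), without resistant library 8 (-0.31, 0.0742) and without resistant library 9 (-0.37, 0.0504). It shares 520 of 3483 exonic bases with *PRIMPOL* on the opposite strand, a gene at 78.0 ± 6.58 in parental and 86.4 ± 16.6 in resistant cells.

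*AURKB* (ENSG00000178999, chr17:8204733-8210600, minus strand), the kinase of the chromosomal passenger complex, had normalized values of 1988, 1926 and 1986 in parental and 1514, 1219 and 1480 in resistant libraries. The parental libraries lay close together and all resistant libraries were below them. The means were 1967 ± 35.5 and 1405 ± 161 (SD, n = 3 per group), a change of -28.9%, with a log2 fold change of -0.49 (SE 0.09, 95% confidence interval -0.69 to -0.29) and an adjusted p of 0.00191 by limma. This call held in all 15 alternative analyses, with adjusted p between 0.00152 and 0.0194. Its exact two-sided permutation p was 0.10, the smallest that 3 against 3 allows, as it was for *PLK4*, *CENPU*, *BORA* and *CEP192*.

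**Figure D3:**
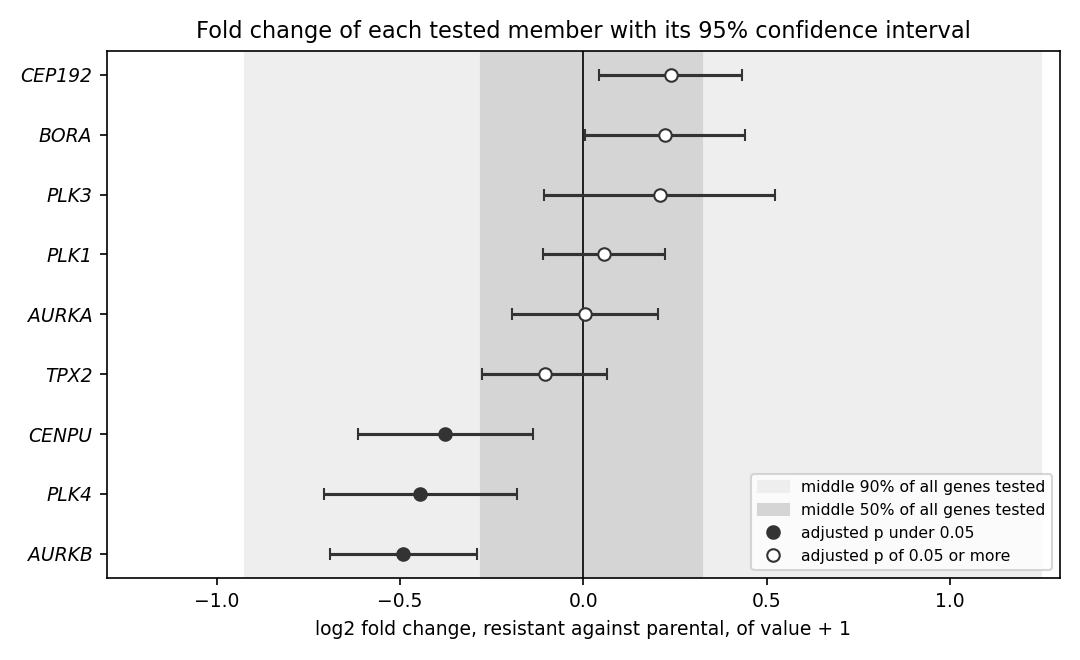
Log2 fold change of value + 1, resistant against parental (horizontal axis), for the 9 tested members, with 95% confidence intervals as bars and the middle 50% and middle 90% of all genes tested as dark and light bands. Filled points (*AURKB* at -0.49, *PLK4* at -0.44 and *CENPU* at -0.38) passed the adjusted p of 0.05, and all 9 points lie inside the light band, which runs from -0.92 to 1.25.

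Per kilobase of the canonical transcripts, the only length used for it, the order of the members changed little between groups. *CENPU* held the fifth place in all 6 libraries, at 458 ± 54.5 in parental and 352 ± 33.3 in resistant cells. *AURKA* and *AURKB* held the third and the fourth place, with *AURKB* ahead in parental libraries 2 and 3 and *AURKA* ahead in the other 4. *PLK4* and *BORA* followed, and *BORA* was ahead in resistant libraries 8 and 9 alone. *CEP192* and *PLK3* came last, at 135 ± 12.5 and 127 ± 21.1 in parental cells, and their order changed from library to library, so these neighbours did not differ beyond their spread.

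Ratios within a library need no scaling between libraries, and they repeated some of the differences of the single genes but not all. The pairs were chosen after the values had been seen, so the ratios are a description with no test. The per-kilobase ratio of *AURKB* to *AURKA* was 0.952, 1.17 and 1.14 in parental and 0.799, 0.696 and 0.818 in resistant libraries. The ratio of *PLK4* to *PLK1* was 0.132, 0.165 and 0.165 in parental and 0.121, 0.103 and 0.102 in resistant libraries. That of *CENPU* to *PLK1* was 0.202, 0.187 and 0.170 against 0.144, 0.132 and 0.138. None of these 3 ratios overlapped between the groups. Neither did that of *TPX2* to *AURKA*, at 1.58 ± 0.0421 in parental and 1.46 ± 0.0158 in resistant cells, or that of the scaffold *CEP192* to *PLK4*, at 0.364 ± 0.0738 and 0.582 ± 0.0959. The ratio of *BORA* to *PLK1* overlapped (0.0985 ± 0.00553 and 0.111 ± 0.00699). The values of *BORA* alone did not overlap, whereas those of *TPX2* and of *AURKA* alone did.

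The libraries of a group did not vary independently from member to member. Resistant library 7 held the highest value of its group in 8 of the 9 members and resistant library 8 the lowest in 6, while parental library 1 was highest in 6 and parental library 2 lowest in 6. The same libraries stood out in the 14 proliferation markers, of which 11 were highest in resistant library 7 and 9 in parental library 1. The median deviation of the members from their group mean was 0.07, -0.08 and 0.01 (log2) in the parental and 0.11, -0.05 and -0.02 in the resistant libraries, whereas that of all genes tested stayed within 0.01 of 0. The part of these library differences in the results was not tested.

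Among 11893 genes with a mean of at least 100, those whose pattern over the 6 libraries was most like *PLK1* were *TRAPPC13*, *CDH1*, *LRRC40*, *PHF19* and *DDX20*, with root mean square differences of the centred log2 values of 0.0183, 0.0226, 0.0240, 0.0296 and 0.0307 against a median of 0.197. The member closest to *PLK1* was *AURKA* at 0.0821, followed by *TPX2* at 0.103 and *BORA* at 0.110. Counting *PLK1* itself, 716, 1546 and 1830 genes were nearer to *PLK1* than *AURKA*, *TPX2* and *BORA*, respectively. *AURKB* was the farthest at 0.289, beyond *PLK4* at 0.283 and *CENPU* at 0.231. With 6 libraries this is a description of likeness only.

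Around the members, 7 lists of pathway genes held 105 genes, of which 104 were tested, 13 were higher and 19 lower, beside 17.8% and 19.8% of all genes tested. By list, the share past the threshold ran from 21.4% (centriole duplication) to 36.4% (Aurora kinase partners), beside 37.7% of all genes tested. The PLK1 docking partners, proteins bound or phosphorylated by PLK1 at kinetochores, centrosomes and the spindle midzone, numbered 18, with 1 higher, 5 lower and a median log2 fold change of 0.03. *FRY*, whose product aids PLK1 activation at centrosomes, was the only one of the 6 past the threshold that was higher, with normalized values of 813, 980 and 754 in parental and 4849, 4206 and 3258 in resistant libraries. Every resistant library was far above every parental library (log2 fold change 2.26, SE 0.14, adjusted p 2.81e-06 by limma). *PRC1*, the microtubule bundler that recruits PLK1 to the midzone, fell from 4641 ± 259 to 2941 ± 91.1 (-0.66, adjusted p 4.41e-05), *NEDD1*, which brings the gamma-tubulin ring complex to centrosomes, from 1344 ± 33.4 to 892 ± 147 (-0.60, adjusted p 0.00221), and *PPP1R12A*, the phosphatase subunit that opposes PLK1, from 1865 ± 72.8 to 1529 ± 47.1 (-0.29, adjusted p 0.00887).

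Of the 12 Aurora kinase partners, 11 were tested, with 2 higher, 2 lower and a median log2 fold change of -0.05. *BIRC5*, which encodes survivin, the passenger-complex subunit that brings Aurora B to centromeres, had normalized values of 4448, 4297 and 4790 in parental and 3634, 3144 and 3489 in resistant libraries. All resistant values were lower (log2 fold change -0.40, SE 0.07, adjusted p 0.00203 by limma). The other subunits of that complex, singled out after their values had been seen, were *INCENP* at 0.05 (adjusted p 0.602) and *CDCA8* at -0.18 (adjusted p 0.0667). *RAN*, the GTPase that frees TPX2 from importins, fell from 19292 ± 561 to 10954 ± 520 (-0.82, adjusted p 6.43e-06). *AJUBA*, an Aurora A activator, rose from 408 ± 203 to 1480 ± 182 (1.97, adjusted p 0.000436), and *HMMR*, which places TPX2 on the spindle, rose from 1188 ± 205 to 1590 ± 203 (0.43, adjusted p 0.0248). The call of *HMMR* was lost without parental library 2, parental library 3 or resistant library 7, at adjusted p between 0.0690 and 0.0982.

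The 15 substrates through which PLK1 acts on mitotic entry and exit included 1 that was higher and 4 that were lower, with a median log2 fold change of -0.21. Together 33.3% of them passed, close to the 37.7% of all genes tested. *CDC25B*, a phosphatase that activates CDK1, had normalized values of 7574, 7285 and 7436 in parental and 4799, 4755 and 4493 in resistant libraries. The groups were far apart (log2 fold change -0.67, SE 0.06, adjusted p 1.78e-05 by limma). *MYBL2*, a transcription factor of the G2/M program, fell from 9763 ± 544 to 7989 ± 266 (-0.29, adjusted p 0.00496) and *FZR1*, an activator of the anaphase-promoting complex, from 1724 ± 83.8 to 1362 ± 113 (-0.34, adjusted p 0.00893). The remaining lower one, *PKMYT1*, singled out after its value had been seen, was at -0.25 (adjusted p 0.0396 by limma). Its call was lost without any 1 of 5 libraries (adjusted p 0.0525 to 0.128). *STAG2*, a cohesin subunit, went the other way, from 2893 ± 303 to 3497 ± 107 (0.28, adjusted p 0.0219), a call lost without parental library 2, parental library 3, resistant library 7 or resistant library 8 (adjusted p 0.0530 to 0.0671).

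In the list of 14 centriole duplication genes, 2 were higher and 1 lower, with a median log2 fold change of 0.10. *FBXW11*, a subunit of the ubiquitin ligase family that marks PLK4 for degradation, fell from 2050 ± 39.6 to 1092 ± 104 (-0.91, adjusted p 2.7e-05 by limma). *CEP152*, the scaffold that recruits PLK4 to the centriole, rose from 699 ± 15.1 to 1034 ± 48.6 (0.56, adjusted p 0.000462, with its chromosomal neighbours at a median of 0.64), and *CEP63*, its partner, from 425 ± 31.8 to 570 ± 41.8 (0.42, adjusted p 0.0112). After the median of the neighbours was subtracted, *CEP152* was at -0.052 (adjusted p 0.691) and *CEP63* at 0.30 (adjusted p 0.0567), and neither passed.

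Of 14 transcription factors and regulators of G2/M genes, 3 were higher and 1, *MYBL2*, lower, with a median log2 fold change of -0.01. *DYRK1A*, the kinase that assembles the DREAM repressor, rose from 2286 ± 139 to 5271 ± 633 (1.20, adjusted p 9.01e-06 by limma, with its chromosomal neighbours at a median of 0.81). *RBL2*, the pocket protein p130 of that complex, rose from 1068 ± 112 to 1596 ± 128 (0.58, adjusted p 0.00109). *LIN52*, the subunit that DYRK1A phosphorylates, rose from 553 ± 107 to 772 ± 56.7 (0.50, adjusted p 0.0152), a call lost without parental library 3 (adjusted p 0.0627) or resistant library 9 (adjusted p 0.0546). *FOXM1*, singled out after its value had been seen, stood at 5375 ± 288 and 5159 ± 309 (-0.06, adjusted p 0.527).

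Of 21 p53 and stress targets, 2 were higher and 5 lower, with a median log2 fold change of -0.11. *TP53INP1*, which promotes cell cycle arrest and death under stress, fell from 1502 ± 180 to 629 ± 50.8 (-1.25, adjusted p 1.46e-05 by limma), and *AEN*, an apoptosis-linked nuclease, from 2239 ± 79.6 to 1074 ± 145 (-1.07, adjusted p 2.53e-05). *MDM2*, the ubiquitin ligase of p53, fell from 3006 ± 168 to 2106 ± 199 (-0.52, adjusted p 0.000928). *TP53I3* rose from 153 ± 20.6 to 286 ± 47.8 (0.89, adjusted p 0.00252), and *DDB2*, a DNA damage sensor, from 382 ± 44.4 to 502 ± 26.2 (0.40, adjusted p 0.0214), the latter not without parental library 1, parental library 3 or resistant library 8 (adjusted p 0.0625 to 0.0783). *CDKN1A*, the p21 inhibitor, singled out after its value had been seen, was at 3632 ± 398 and 3231 ± 152 (-0.16, adjusted p 0.158).

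The 14 proliferation markers gave 2 higher and 2 lower, below the 37.7% of all genes that passed, with a median log2 fold change of 0.01. The number that were lower ran from 0 without the intensity trend to 5 after centring on neighbours. *MKI67*, which coats mitotic chromosomes, rose from 10747 ± 561 to 15030 ± 2204 (0.47, adjusted p 0.0041 by limma), and *CCNB2*, a mitotic cyclin, from 3602 ± 344 to 4384 ± 196 (0.29, adjusted p 0.0158). The neighbours of *CCNB2* had a median log2 fold change of 0.52, and after that was subtracted it passed in the opposite direction (-0.31, adjusted p 0.0150). The replication gene *MCM2* fell from 24254 ± 309 to 20911 ± 598 (-0.21, adjusted p 0.0107, but -0.061 and adjusted p 0.363 with quantile normalization) and *RRM2*, a ribonucleotide reductase subunit, from 5815 ± 194 to 4956 ± 415 (-0.23, adjusted p 0.0274). The call of *CCNB2* was lost without parental library 2, parental library 3 or resistant library 7 (adjusted p 0.0509 to 0.0610), and that of *RRM2* without parental library 1, parental library 3, resistant library 8 or resistant library 9 (adjusted p 0.0546 to 0.10).

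**Figure D4:**
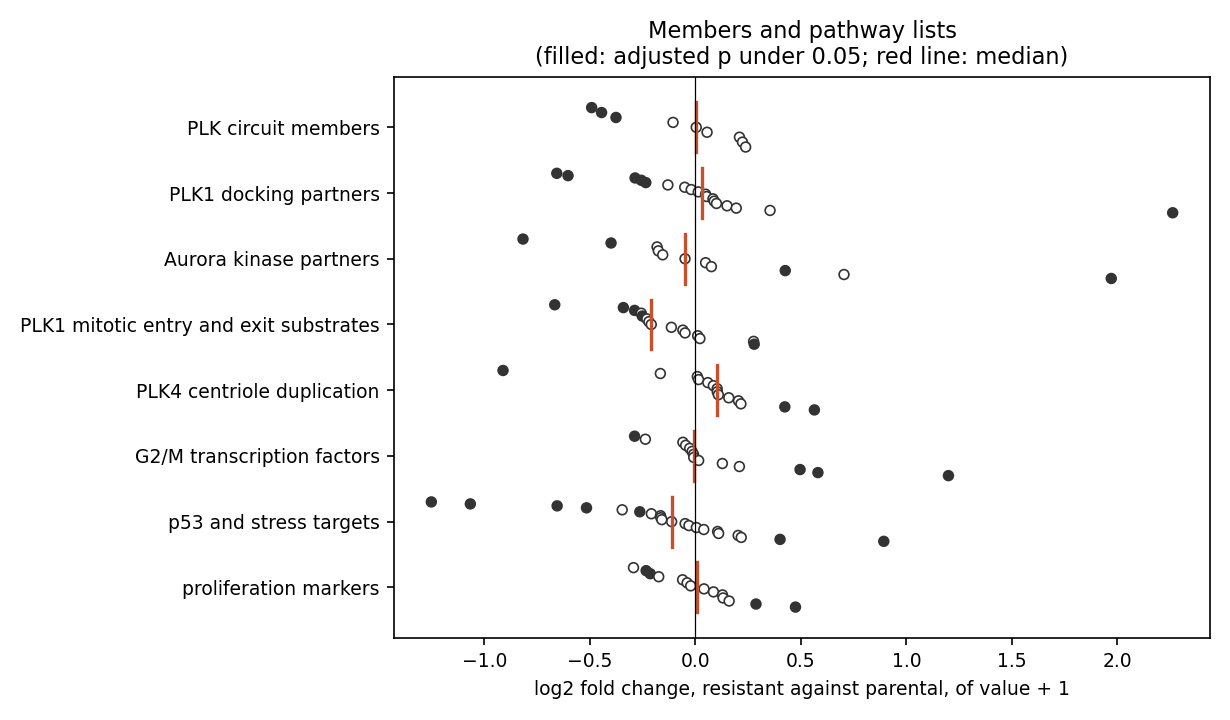
Log2 fold change of value + 1, resistant against parental (horizontal axis), for the 9 tested members and each tested gene of the 7 pathway lists (rows). Filled points passed the adjusted p of 0.05 by limma and the red line marks the median of the row, which runs from -0.21 for the mitotic entry and exit substrates to 0.10 for the centriole duplication genes, with *FRY* at 2.26 farthest to the right.

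In some chromosome stretches neighbouring genes shifted together in these libraries, so each gene was also set beside its neighbours, up to 25 tested genes on each side. Around the 9 members the median log2 fold change of the neighbours lay between -0.08 (*PLK3*) and 0.12 (*BORA*), and it was -0.04 for *AURKB*, 0.01 for *PLK4* and -0.04 for *CENPU*. The 3 members that fell thus lay in stretches whose median was near 0, and all 3 calls held when the median of the neighbours was subtracted. This did not hold for much of the wider pathway. Of its 32 genes past the threshold, 11 had neighbours whose median was beyond 0.3 in either direction. After the median of the neighbours was subtracted, 21 of the 32 passed, among them *CCNB2* in the opposite direction. Other pathway genes gained a call, and 32 passed in all.

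The genes that lost their call in this way included *RAN* (neighbours at -0.65), *PRC1* (-0.58), *NEDD1* (-0.42), *FZR1* (-0.21), *LIN52* (0.38) and *CEP63* (0.15). After subtraction *CEP152* stood at -0.05, *MDM2* at 0.02 and *PPP1R12A* at 0.19, with signs opposite to their own fold changes, and *CCNB2* passed the threshold in the opposite direction at -0.31. Among the genes that passed in the same direction were *FRY* (2.07), *AJUBA* (1.50), *CDC25B* (-0.73), *BIRC5* (-0.44), *FBXW11* (-0.64), *RBL2* (0.58), *TP53INP1* (-1.39) and *MKI67* (0.44). *DYRK1A* passed at 0.37, where its own fold change had been 1.20. Gene copy number was not measured in these libraries, and its part in these shifts was not tested.

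**Figure D5:**
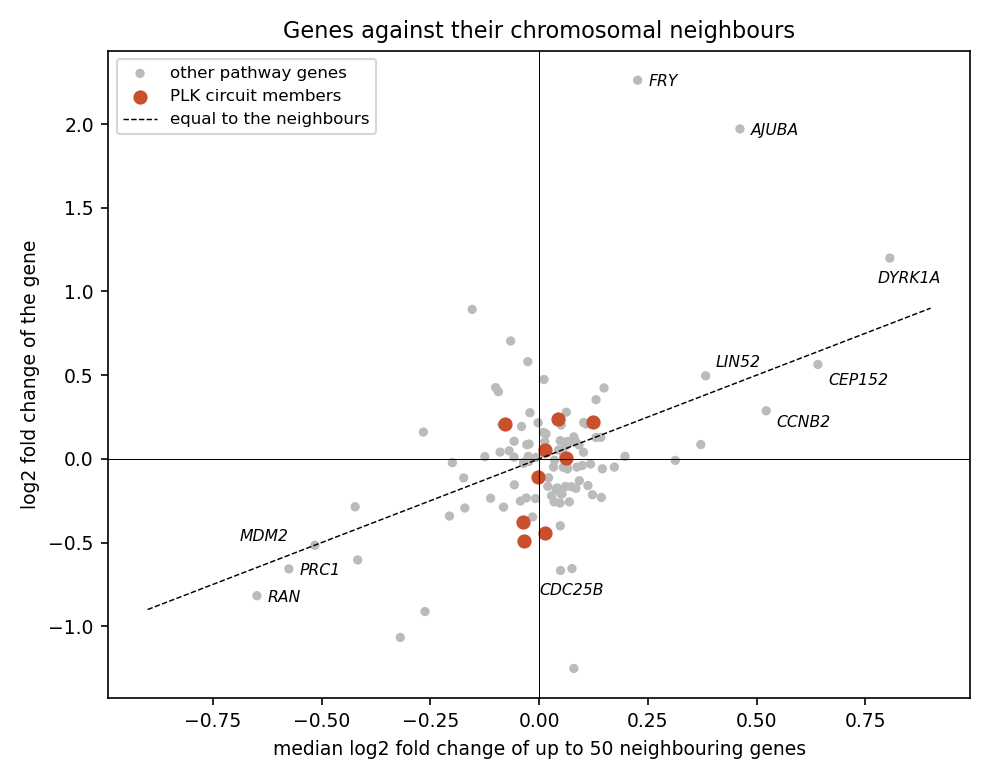
Log2 fold change of each gene (vertical axis) against the median log2 fold change of up to 50 neighbouring tested genes (horizontal axis), for the 9 tested members (red) and the genes of the 7 pathway lists (grey), with a dashed line where both are equal. The members lie between -0.08 and 0.12 on the horizontal axis, while *RAN* (-0.65) and *DYRK1A* (0.81) lie at its ends.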

How the data were processed

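The authors trimmed reads with Trimmomatic 0.38, aligned and quantified them with RSEM 1.3.1 and STAR on GRCh38 (Gencode v43) and normalized them with DESeq2 1.30.0, per the labels and methods. The deposited signal per gene and library is therefore a normalized value and not a count, and replicates were kept apart. Between 30.1% and 57.2% of low values lay within 0.02 of a whole number of reads, so no count test was run. Of 62757 rows, 47 second copies of pseudoautosomal genes were left out. Gencode v44 gave symbols and positions for 62639 rows.

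The 16347 genes with a mean of 10 or more entered a limma fit (version 3.58.1 in R 4.3.3) of log2(value + 1) on condition alone, with moderated variances that followed the intensity trend and Benjamini-Hochberg adjustment over all of them at 0.05. Fold changes are on that scale, which understates those of low genes. Python 3.11.15, numpy 2.4.6, pandas 2.3.3 and matplotlib 3.10.9 served for the rest. On simulated libraries of 16347 genes for this comparison, 78 of 100 genes changed by 1 (log2) and 97 of 100 changed by 2 were called with the right sign. No smaller change was simulated and few genes were changed. These rates therefore do not describe changes of the size seen in the members. The members and lists were chosen with earlier results of these data known. Named genes are the members and *PLK5*, up to 4 genes of each list with the smallest p plus those against the list's main direction, and the 5 genes most like *PLK1*; any other is marked. Alternatives were other pseudocounts, filters and scalings, no intensity trend, centring on neighbouring genes, other transcript lengths (for the polo-like kinase shares only) and leaving out each library. Part of the check of the line's marker genes is not reported here.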

Additional observations from a re-analysis of the deposited data

How the results depend on the processing

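Each result was recomputed with pseudocounts of 0.1 and 10, without a filter on low values and with a minimum mean of 50, with 3 other scalings, without the intensity trend, after centring on neighbouring genes and without each library in turn. The number of members past the threshold was 3, against 5 with upper quartile and with equal sum scaling and 1 without the trend, and 1 to 3 without a single library (1, *AURKB*, without resistant library 8). *AURKB* passed in all 15 alternatives, *PLK4* in 12 and *CENPU* in 11, while *PLK1*, *PLK3*, *AURKA* and *TPX2* passed in none. Without the trend *PLK4* was at -0.44 (adjusted p 0.0632) and *CENPU* at -0.38 (adjusted p 0.0641). *BORA* passed at 0.28 and 0.29 and *CEP192* at 0.29 and 0.30 with upper quartile and equal sum scaling, and *CEP192* also at 0.28 with quantile normalization and 0.24 with a minimum mean of 50, by limma. Without the trend the calls of *HMMR*, *STAG2*, *LIN52*, *CCNB2*, *MCM2*, *RRM2* and *NUDC* were also lost, as was that of *RRM2* with upper quartile and equal sum scaling.

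Leaving out single libraries gave log2 fold changes of -0.016 to 0.092 for *PLK1*, -0.56 to -0.35 for *PLK4*, -0.068 to 0.11 for *AURKA*, 0.17 to 0.30 for *CEP192* and -0.45 to -0.28 for *CENPU*. *AURKA* was at -0.049 after centring on neighbours, which also put *CCNB2* at -0.31, *CEP152* at -0.052, *MDM2* at 0.015 and *PPP1R12A* at 0.19. The share of *PLK4* differed by -5.34 points with the longest transcript and -5.17 points with no length correction. The cause was not tested, except that dropping a library leaves fewer samples. No paired analysis was possible because the libraries of the groups share no replicate number and nothing says which were harvested together. Whole reads were not recovered, so no count test was run. Depth limits *PLK2* and *PLK5*, both under 3 reads throughout.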

Other observations

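Among the docking partners, *GTSE1*, a microtubule-associated PLK1 substrate, was at 1939 ± 191 in parental and 1642 ± 51.9 in resistant cells (SD, n = 3 per group; log2 fold change -0.24, adjusted p 0.0495 by limma), and *NUDC*, a dynein-linked substrate, at 4397 ± 75.6 and 3685 ± 230 (-0.26, adjusted p 0.0115). Both were chosen after their values had been seen. The call of *GTSE1* was lost without any 1 of 5 libraries (adjusted p 0.0770 to 0.142) and in 7 other alternatives, among them all 3 other scalings and centring on neighbours (-0.13, adjusted p 0.332). That of *NUDC* was lost without the intensity trend.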
